A study of Mus musculus with 5 samples.

Results

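The red cell membrane skeleton and the membrane proteins that anchor it were followed through 9 genes: Slc4a1, Ank1, Spnb1, Epb4.1, Epb4.2, Epb4.9, Add2, Rhag and Rhd. They were picked by name, and all 9 were found among the 23441 gene rows of the count table, 7 under the symbol given and 2 under a newer symbol that RefSeq pairs with it (Sptb for Spnb1 and Dmtn for Epb4.9). Poly(A) RNA of the mandible had been sequenced from mouse embryos of embryonic day 10.5, and reads were counted per gene. The 2 dCKO libraries had the genotype Wnt1Cre; Yapf/f, Tazf/f on a C57BL/6J x CBA/J; 129SvEv background, and the 3 control libraries had the genotype Yapf/f, Tazf/f, with no Cre named, on 129SvEv. All 5 libraries thus carried the floxed Yap and Taz alleles, and genotype and strain background cannot be told apart. Wnt1Cre is a transgene in which Wnt1 sequences drive Cre in the neural crest, a lineage that forms arch mesenchyme and not blood. The labels do not say whether each library came from 1 embryo or from a pool, and the p-values below reflect the spread between these 5 samples alone, which may be technical.

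A red cell keeps its shape through a protein net beneath its membrane. Long spectrin rods are tied to short actin filaments by protein 4.1, adducin and dematin. The net is held to the lipid bilayer where ankyrin and protein 4.2 bind band 3, the chloride and bicarbonate exchanger, which also gathers the Rh proteins around it. Inherited loss of several of these proteins gives spherocytic or elliptocytic anaemia in humans and mice. At this stage of mouse development the circulating red cells are mostly large primitive cells from the yolk sac that still hold a nucleus.

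Of the 9 genes, 8 were higher in dCKO than in control tissue (edgeR adjusted p below 0.05, from the quasi-likelihood test with Benjamini-Hochberg adjustment over all genes), by 6.27-fold to 24.8-fold, against a background of 5.0% of the 12710 genes tested. The remaining one, Epb4.1, measured 1.24-fold higher and did not pass. In all 9 both dCKO libraries lay above all 3 control libraries, an arrangement that 19.0% of the tested genes showed. The median log2 fold change of the 9 was 3.69, and that of all tested genes was −0.00. In bulk tissue, more red cells and more RNA per red cell cannot be told apart.

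The dCKO libraries held 11346480 and 13298973 counts, and the control libraries 6491137 to 7439419. Levels are given in CPM, counts scaled to library size with TMM, and where genes are set side by side, in CPM per kb of annotated exon. Together the 9 genes took 0.267% of all counts in dCKO replicate 1 (95% Wilson interval 0.264 to 0.270) and 0.239% in dCKO replicate 2 (0.236 to 0.241), against 0.0542% to 0.0560% in the controls. These intervals cover counting error only. Yap1 and Wwtr1, the targeted genes, were lower in the dCKO libraries (0.40-fold each). Control replicate 1 was below the other controls in both, at 311.4 against 474.4 and 511.4 CPM for Yap1 and 38.31 against 64.97 and 66.06 CPM for Wwtr1. A fixed list of erythroid markers rose in the dCKO libraries, with 11 of 11 tested genes called and a summed level of 54770 to 78840 CPM in dCKO against 3372 to 4371 CPM in control. Of that list Hba-a1 and Hba-a2, near-identical copies, stood at 0 counts throughout. Markers of megakaryocytes and platelets rose too, in 6 of 6 tested genes, at 96.3 to 179 CPM in dCKO and 9.05 to 17.2 CPM in control. Only 3 of the 8 listed averaged at least 1 CPM in control, so some were testable only through dCKO. For myeloid and leukocyte markers 2 of 6 rose, at 49.8 to 73.7 CPM in dCKO and 29.0 to 33.7 CPM in control. Endothelial markers, with 1 of 8 called, summed to 276 to 318 CPM in dCKO and 251 to 282 CPM in control. Their part in the results below was not tested. All 10 cranial mesenchyme markers of the labelled tissue were tested, at a summed 2022 to 2109 CPM in dCKO and 2199 to 2352 CPM in control, with 1 higher and 3 lower in dCKO, beside a background of 1.42% lower. Epithelial markers summed to 496 to 514 CPM in dCKO and 326 to 423 CPM in control, with 3 of 8 higher.

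**Figure D1:**
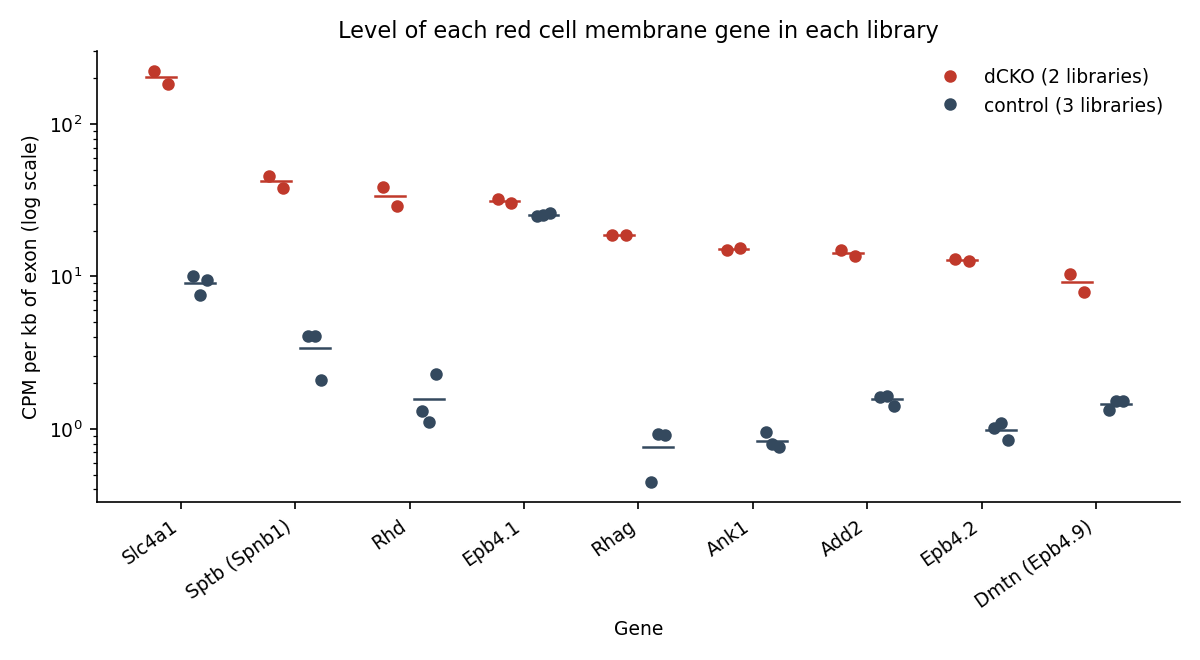
Level of each of the 9 genes in each library, in CPM per kb of exon on a log axis, with points for libraries and short lines for group means. Of the 9 genes, 8 stand far apart between dCKO and control, from 9.16 to 203 CPM per kb in dCKO, while Epb4.1 has its dCKO points, 32.3 and 30.5, close above its control points, 24.9 to 26.0.

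Slc4a1, which encodes band 3, was the most abundant of the 9 in dCKO tissue. It measured 1086 and 896 CPM in dCKO replicates 1 and 2, and 49.3, 37.2 and 46.2 CPM in control replicates 1, 2 and 3. Every dCKO value was more than an order of magnitude above every control value. The log2 fold change was 4.49 (95% interval 4.2 to 4.77, edgeR adjusted p = 5.99e-14, SE 0.14). Slc4a1 alone made up 37.9% of the counts of the 9 genes in dCKO and 8.15% in control.

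The genes that couple band 3 to the spectrin net rose with it. Ank1, which encodes the red cell ankyrin that links band 3 to beta spectrin, measured 202 and 209 CPM in the dCKO libraries and 12.9, 10.7 and 10.2 CPM in the controls. Its dCKO values differed little, at a ratio of 0.967, and its log2 fold change was 4.19 (edgeR adjusted p = 6.77e-14, SE 0.14). Epb4.2, which encodes protein 4.2, a transglutaminase relative without enzyme activity that binds band 3 and ankyrin, measured 70.4 and 68.1 CPM in dCKO and 5.51, 5.94 and 4.58 CPM in control. The groups were again far apart, with a log2 fold change of 3.69 (edgeR adjusted p = 1.37e-11, SE 0.17). In the authors' deposited table the fold changes over wild type were 18.41 for Ank1 and 12.88 for Epb4.2. An antisense gene, Gm15816, overlaps 6.37% of the annotated exon bases of Ank1, and it had at most 3 counts in any library.

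Sptb, the beta spectrin of the red cell, had the second highest mean level in dCKO tissue. Per kb it held that place in both dCKO libraries, but in CPM Epb4.1 was higher in dCKO replicate 2, at 486. Sptb measured 558 and 463 CPM in dCKO libraries, and 49.3, 49.7 and 25.3 CPM in controls 1, 2 and 3. Control replicate 3 stood below the other controls, with 166 counts against 376 and 368. The log2 fold change was 3.61 (edgeR adjusted p = 9.30e-11, SE 0.20), and it was 3.36 without control replicate 3.

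Among the proteins that sit at the junctions of spectrin and actin, the changes were of unlike size. Add2, the beta adducin that caps actin filaments in red cells and neurons, measured 152 and 138 CPM in dCKO tissue and 16.4, 16.6 and 14.3 CPM in control tissue. Its log2 fold change was 3.20 (edgeR adjusted p = 2.48e-12, SE 0.13), with the 3 controls within 1.16-fold of each other. Dmtn, which encodes dematin, an actin-bundling protein, measured 102 and 77.1 CPM in dCKO tissue and 12.99, 14.99 and 14.95 CPM in control tissue. This was the smallest change among the 8 genes that passed, a log2 fold change of 2.65 (edgeR adjusted p = 3.86e-10, SE 0.16), and the dCKO libraries differed from each other by 1.33-fold.

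Epb4.1, which encodes protein 4.1, the link between spectrin, actin and the transmembrane glycophorin C, and which is also made outside the blood, differed from the others. It measured 515 and 486 CPM in dCKO libraries and 397, 405 and 415 CPM in controls. Although the groups did not overlap, the log2 fold change of 0.30 (SE 0.11, 95% interval 0.08 to 0.52) did not pass over all genes (edgeR adjusted p = 0.0939, unadjusted p = 0.00924). It passed without control replicate 3 (edgeR adjusted p = 0.0489). In the authors' deposited table it stood at 1.26-fold with an adjusted p of 0.248. Epb4.1 was the most abundant of the 9 in control tissue, where it held 74.7% of their counts, and held 19.3% of them in dCKO tissue. As a difference rather than a fold, its mean level was 5.97 CPM per kb higher in dCKO than in control, beside 7.70 for Dmtn, 11.8 for Epb4.2, 12.7 for Add2, 14.4 for Ank1 and 18.1 to 194 for the other 4 genes. On that scale too it had the smallest difference, but close to that of Dmtn. That rank depends on the division by exon length, which is longest for Epb4.1. In plain CPM its difference was 95.21, above Dmtn (75.45), Epb4.2 (63.94), Rhd (51.44) and Rhag (42.25). It was below Add2, Ank1, Sptb and Slc4a1 (129.2 to 946.9).

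Rhag had the largest fold of the 9 genes, 24.8, and Rhd the third largest, 21.7, beside 22.4 for Slc4a1. Rhag, which encodes the Rh-associated glycoprotein, a gas or ammonium channel needed for Rh proteins to reach the membrane, measured 44.0 and 44.1 CPM in the dCKO libraries and 1.05, 2.16 and 2.14 CPM in the controls. Control counts were only 8, 16 and 14, so the size of its fold, a log2 change of 4.63 (95% interval 4.12 to 5.14, edgeR adjusted p = 5.63e-11, SE 0.24), is less precise than that of Slc4a1. Rhd, the single mouse counterpart of the human Rh blood group pair, measured 61.9 and 46.0 CPM in dCKO and 2.10, 1.76 and 3.66 CPM in control, where its counts were 16, 13 and 24. Its log2 fold change was 4.44 (edgeR adjusted p = 1.09e-10, SE 0.24). Per kb, Rhag stood at 0.484 and 0.653 times Rhd in dCKO libraries and at 0.341, 0.839 and 0.398 times in controls, ranges that overlapped.

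Per kb of exon, the order in dCKO tissue was Slc4a1 (203 ± 27.5 CPM per kb), Sptb (42.0 ± 5.51), Rhd (33.8 ± 7.09), Epb4.1 (31.4 ± 1.29), Rhag (18.8 ± 0.01), Ank1 (15.2 ± 0.36), Add2 (14.3 ± 0.93), Epb4.2 (12.8 ± 0.30) and Dmtn (9.16 ± 1.83; SD, n = 2 each). Slc4a1 was above every other gene in both libraries, by 4.81 to 23.3 times. Rhd and Epb4.1 changed places between the dCKO libraries, whereas each other pair of neighbours kept its order in both, with Ank1 and Add2 differing by as little as 1.0-fold in replicate 1. In control tissue the order was Epb4.1 (25.5 ± 0.57), Slc4a1 (9.04 ± 1.30), Sptb (3.41 ± 1.15), Rhd (1.57 ± 0.64), Add2 (1.56 ± 0.12), Dmtn (1.46 ± 0.12), Epb4.2 (0.987 ± 0.13), Ank1 (0.832 ± 0.10) and Rhag (0.762 ± 0.27; SD, n = 3 each). Below Slc4a1, the control values of Sptb and Rhd, Rhd and Add2, Add2 and Dmtn, and Ank1 and Rhag crossed in at least 1 library. The exon lengths come from GENCODE M21 and not from the authors' annotation, which the sources used here do not give.

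The promoters of 6 of the 9 genes were on hand from RefSeq (GRCm38.p6), as 250 bases before each annotated start. They are shown for the Rh pair, which had 2 of the 3 largest folds, for Epb4.2, and for the most upstream start of Epb4.1, the gene that did not pass. Capitals mark GATAA, a core of the sites bound by GATA1, and CACCC, a core of the sites bound by KLF1, on either strand (TTATC and GGGTG on the strand printed). Both factors are known to act in red cells.
Rhag, plus strand, chr17:40810899-40811148: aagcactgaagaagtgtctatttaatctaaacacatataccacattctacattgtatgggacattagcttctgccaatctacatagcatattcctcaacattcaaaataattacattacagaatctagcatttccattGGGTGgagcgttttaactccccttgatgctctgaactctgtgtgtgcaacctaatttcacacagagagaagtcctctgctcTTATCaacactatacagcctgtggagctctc
Rhd, plus strand, chr4:134864286-134864535: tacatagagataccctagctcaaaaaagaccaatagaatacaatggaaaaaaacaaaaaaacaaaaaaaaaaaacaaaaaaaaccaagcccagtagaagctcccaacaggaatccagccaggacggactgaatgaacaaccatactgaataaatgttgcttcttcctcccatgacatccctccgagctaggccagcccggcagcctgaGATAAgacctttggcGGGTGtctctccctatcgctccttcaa
Epb4.2, minus strand, chr2:121036878-121037127: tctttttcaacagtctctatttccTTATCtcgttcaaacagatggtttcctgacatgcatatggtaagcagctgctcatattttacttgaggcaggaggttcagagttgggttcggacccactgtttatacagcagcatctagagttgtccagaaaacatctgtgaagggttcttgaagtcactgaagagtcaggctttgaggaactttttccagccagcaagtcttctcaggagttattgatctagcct
Epb4.1, minus strand, chr4:132075314-132075563: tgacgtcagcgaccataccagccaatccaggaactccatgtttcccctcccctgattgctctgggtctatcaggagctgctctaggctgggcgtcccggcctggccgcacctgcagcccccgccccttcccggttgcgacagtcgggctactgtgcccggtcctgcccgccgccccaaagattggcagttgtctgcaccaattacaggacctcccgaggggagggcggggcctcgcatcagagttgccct

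Both Rh promoters held GATAA close to the start, from 31 bases before it in Rhag and from 42 bases before it in Rhd, on opposite strands, together with a CACCC. In Epb4.2 the one GATAA began 226 bases before the start, and there was no CACCC. Sptb and Add2 held a CACCC at 95 and 131 bases before the start, and no GATAA. None of the 3 annotated windows of Epb4.1 held either. Counted by gene, 3 of 6 members held GATAA and 4 of 6 held CACCC. Of all 27025 genes with such windows, 25.5% held GATAA and 54.5% held CACCC. These are matches of letters alone, which did not overlap each other.

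Close relatives of the 9 genes mostly did not pass the test. Of 35 listed relatives 34 were found and 22 tested, of which 2 rose, 0 fell and 20 did not pass (edgeR), which is 9.09% higher beside the background of 5.0% higher and 1.42% lower. Their median log2 fold change was 0.03. The risers were Tgm2, tissue transglutaminase, at 91.9 and 73.6 CPM in dCKO and 11.4, 11.5 and 10.7 CPM in control (log2 fold change 2.88, SE 0.16, edgeR adjusted p = 9.30e-11), and Slc4a2, the anion exchanger of most other cells. Slc4a2 measured 83.1 ± 3.15 CPM in dCKO (SD, n = 2) and 59.2 ± 4.35 CPM in control (SD, n = 3), a log2 fold change of 0.49 (edgeR adjusted p = 0.02, SE 0.12). Slc4a2 lost its call without any 1 library other than control replicate 3, which left Tgm2 alone, and without that library 5 relatives were called. The 0 that fell stood at 2 by unadjusted p below 0.05, and at 0 by DESeq2 and limma-voom. Sptan1 and Sptbn1, the alpha and beta spectrins of non-erythroid cells, had log2 fold changes of −0.01 (95% interval −0.26 to 0.23) and −0.14 (−0.39 to 0.12). Ank3, ankyrin-G, was at −0.06 (−0.34 to 0.22). Add1, the alpha adducin found in most cells, was at 0.34 (0.11 to 0.56) and did not pass (edgeR adjusted p = 0.0774).

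**Figure D2:**
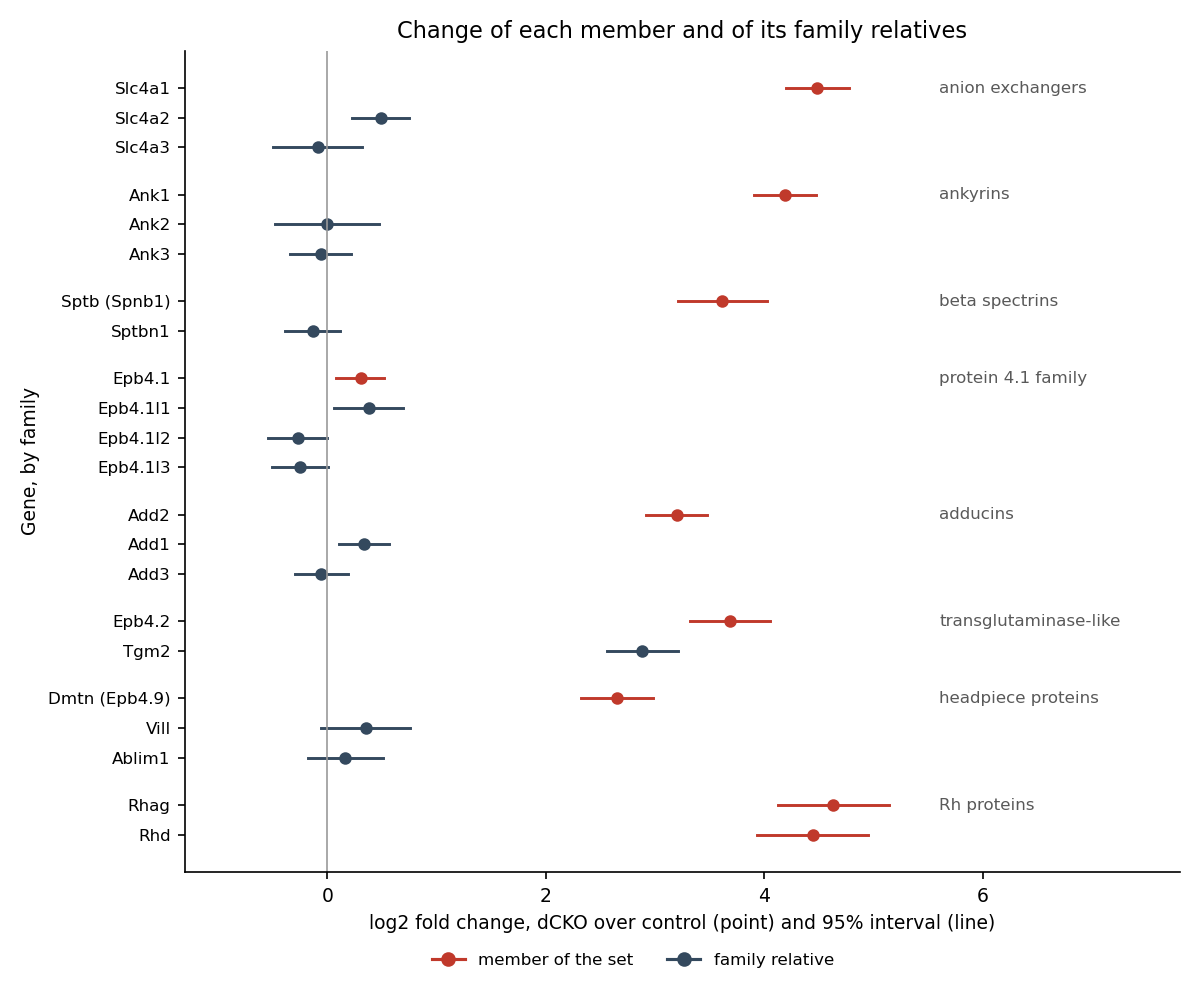
log2 fold change of dCKO over control (points) with 95% intervals (lines) for each of the 9 genes and for measured family relatives. Of the 9 genes, 8 lie between 2.65 and 4.63, Epb4.1 lies at 0.30 among the relatives, and Tgm2, at 2.88, is the relative that stands far from 0.

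Within each family the red cell gene held a larger share of the family's transcripts in dCKO tissue, in levels per kb. Slc4a1 made up 94.7% and 94.1% of Slc4a1, Slc4a2 and Slc4a3 together in the dCKO libraries, and 55.0%, 44.5% and 49.0% in the controls. Ank1 made up 83.2% and 80.6% of the ankyrins in dCKO and 23.4%, 17.7% and 16.9% in control. Sptb made up 79.3% and 72.2% of Sptb, Sptbn1 and Sptbn4 together in dCKO and 21.5%, 22.2% and 12.5% in control. Ank1 and Sptb thus held most of these summed levels in dCKO and the smaller part in control. Add2 remained a minor adducin, with 22.0% and 20.2% in dCKO and 3.39%, 3.47% and 2.94% in control. Epb4.1 was the main member of its family in both groups, with 65.9% and 60.4% in dCKO and 56.8%, 56.4% and 55.7% in control. The groups did not overlap in any of these 5 shares, where an exact permutation test of 2 against 3 libraries gives p = 0.2 (two-sided), the smallest it can give.

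**Figure D3:**
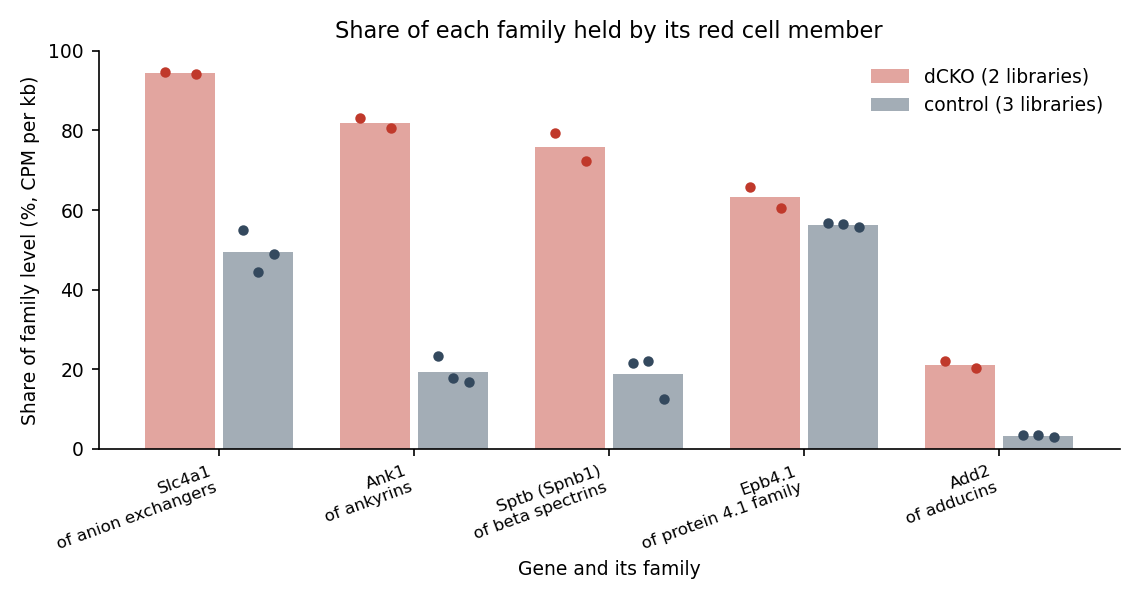
Share of each family's summed level (CPM per kb, in %) held by its red cell gene, with bars for group means and points for libraries. The beta spectrins are Sptb, Sptbn1 and Sptbn4. Ank1 and Sptb average 81.9% and 75.7% in dCKO, against 19.3% and 18.7% in control, while Epb4.1 averages 63.2% in dCKO and 56.3% in control.

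Other proteins of the red cell membrane rose in dCKO tissue in 20 of 27 tested cases, with 0 lower and 7 not passing (edgeR). DESeq2, limma-voom and an unadjusted p below 0.05 also gave 0 lower. The background was 5.0% higher, and the list's median log2 fold change was 1.32. Icam4, Slc14a1 and Cldn13, counted among the 20, averaged 0.273, 0.318 and 0.687 CPM in control. They entered the test only through their dCKO levels. Ermap and Kel were among the 4 with the smallest p. Ermap, an erythroblast membrane protein, measured 87.8 ± 10.2 CPM in dCKO and 4.84 ± 1.16 CPM in control. Kel, the Kell blood group metalloprotease, measured 47.1 ± 8.26 CPM in dCKO and 2.45 ± 0.14 CPM in control (SD, n = 2 and 3). Their folds, 18.1 and 19.1, were in the range of the 9 genes. Gypc, glycophorin C, the membrane partner of protein 4.1, rose 2.50-fold, to 97.6 ± 12.1 CPM in dCKO, against 38.96 ± 5.59 CPM in control. Tmod1, tropomodulin, which caps actin at the spectrin junctions, rose 15.5-fold. Mpp1, the scaffold that joins protein 4.1 to glycophorin C, measured 21.8 ± 2.79 CPM in dCKO and 27.5 ± 2.996 CPM in control and did not pass (edgeR adjusted p = 0.274). Nor did Actb, the beta actin of the junctions, at 3053 ± 47.2 CPM in dCKO and 3138 ± 247 CPM in control, Tpm3, Cd47, Slc16a1, Abcb6 or Piezo1.

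Whether the 9 genes changed by as much as red cell RNA in general was asked by scaling each library to the geometric mean count of 11 erythroid markers, none of them among the 9. Those markers (Hba-x, Hbb-bh1, Hbb-y, Alas2, Gata1, Klf1, Epor, Hemgn, Gfi1b, Nfe2 and Tspan33) were 17.7-fold higher in dCKO than in control as a group. In that scaling 4 members were lower in dCKO (edgeR adjusted p below 0.05), beside 99.0% of all tested genes. Higher were 0, beside 0.0472% (at an unadjusted p below 0.05, likewise 0). In bulk tissue, a gene also transcribed in other cells falls short in this ratio even where its red cell RNA kept step with the markers. A shortfall of that kind and a smaller change within red cells cannot be told apart here. Epb4.1 fell short of the markers by 3.84 on the log2 scale, with 132 and 161 counts per 100 marker counts in dCKO and 1930, 2140 and 2220 in control, giving −3.84 (edgeR adjusted p = 5.96e-59, SE 0.23). Dmtn had 26.3 and 25.5 counts per 100 in dCKO and 63.1, 79.1 and 79.9 in control, a log2 difference of −1.51 (edgeR adjusted p = 9.20e-09, SE 0.26). Add2 had 38.9 and 45.8 per 100 in dCKO and 79.7, 87.7 and 76.6 in control, a log2 difference of −0.94 (edgeR adjusted p = 1.45e-04, SE 0.25). In each of these 3 genes the groups did not overlap. Sptb was the fourth, at 143 and 153 per 100 in dCKO and 240, 262 and 135 in control, a log2 difference of −0.52 (edgeR adjusted p = 0.0154, SE 0.22), but the groups overlapped and the call was lost without control replicate 1, control replicate 2 or dCKO replicate 1 (edgeR adjusted p up to 0.227).

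The other 5 did not pass the test against the markers. Slc4a1 had 279 and 297 counts per 100 marker counts in dCKO and 240, 196 and 247 in control, a log2 difference of 0.34 (95% interval −0.07 to 0.75, edgeR adjusted p = 0.107). Ank1 stood at 0.07 (−0.42 to 0.55), Epb4.2 at −0.44 (−1.04 to 0.16), Rhag at 0.50 (−0.26 to 1.26) and Rhd at 0.28 (−0.42 to 0.98). Differences within these bounds are not excluded, and the shared error of the marker values may make the intervals too narrow. The groups did not overlap in Slc4a1, which lay higher in dCKO. Nor did they in Epb4.2, which lay lower, at 18.1 and 22.6 per 100 in dCKO and 26.8, 31.4 and 24.5 in control. Between the dCKO libraries themselves, the geometric mean of the markers was 1.29 times as high in replicate 1 as in replicate 2, and the ratios of the 9 genes ran from 0.967 in Ank1 to 1.35 in Rhd.

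**Figure D4:**
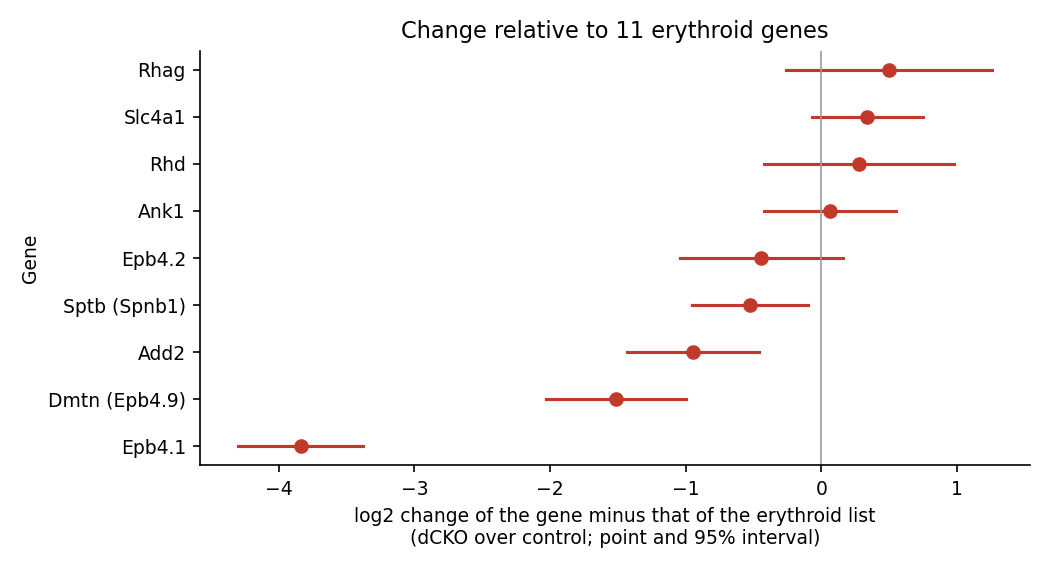
log2 change of each of the 9 genes minus that of 11 erythroid markers, dCKO over control, with 95% intervals. Rhag, Slc4a1, Rhd, Ank1 and Epb4.2 have intervals that cross 0, and Epb4.1 lies at −3.84. The error of the marker values is shared by all genes, so the intervals may be too narrow.

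Genes whose profiles over the 5 libraries were nearest to a member were found among 10742 genes averaging at least 5 CPM, by the Euclidean distance of log2 CPM after each gene's mean was subtracted. Nearest to Slc4a1 were Pkhd1l1 (distance 0.252), 1300017J02Rik (0.343), Pklr, the red cell and liver pyruvate kinase (0.355), and the embryonic globin Hbb-y (0.376). Nearest to Add2 were Mgst3 (0.222), Lyl1 (0.378), Tgm2 (0.386) and Blvrb, a biliverdin reductase abundant in red cells (0.391). Nearest to Epb4.1 were Pced1a (0.0603), Tbcd (0.0617), Ube2h (0.0638) and Prkab1 (0.0653). The genes near Slc4a1 had log2 fold changes of 4.21 to 4.65 and those near Epb4.1 of 0.26 to 0.34. Likeness over 5 libraries of 2 groups rests mostly on the difference between the groups. Some of these genes reached the mean of 5 CPM only through the dCKO libraries. In controls Pkhd1l1 stood at 0.675 to 0.787 CPM, 1300017J02Rik at 0.54 to 0.918 CPM and Lyl1 at 3.81 to 4.32 CPM.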

How the data were processed

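The authors deposited raw read counts per gene symbol for 5 libraries, and a table of their own comparison whose columns, per the file headers, are mean normalized counts (a signal per gene), the fold change as a ratio and on the log2 scale, and p-values before and after adjustment. The mm9 build, HTSeq 0.5.4p3 and DESeq 1.16.0 appear in the submitters' processing notes. Aligner, annotation, counting mode and strandedness were not given in the sources used here. Columns headed wild type were matched to the control samples by replicate number. The table has 23441 rows, 27 of them with symbols turned into dates. No 2 libraries within a group agreed within sampling noise (chi-square 4.43 to 14.1 per gene).

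Counts were analysed in R 4.3.3 with edgeR 4.0.16: filterByExpr (minimum count 10, minimum total 15; 12710 genes, all 9 members among them), TMM scaling, and glmQLFit with glmQLFTest, two-sided, Benjamini-Hochberg adjusted over all genes, threshold 0.05. Each standard error is the size of the log2 fold change divided by the root of F. The fit was tested on simulated data. For the erythroid comparison, library sizes were replaced by the geometric mean count (0.5 added) of the list's 11 genes with at least 50 counts in all. Exon lengths are unions over GENCODE M21 transcripts (GRCm38), another build than mm9, so gene coordinates are not printed, and the promoter windows carry their RefSeq build.

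Named were all 9 members, the 4 genes of smallest p in each list averaging at least 1 CPM, the most abundant relatives, and the 4 nearest profiles to 3 members. Gypc, Tmod1, Mpp1, Actb, Tpm3, Cd47, Slc16a1, Abcb6, Piezo1, Icam4, Slc14a1 and Cldn13 were named after their values were seen. The family shares and the per kb ratios were also chosen after the data were seen. The members and lists were chosen with earlier results of these data known. Of the marker lists used only to describe the tissue, that of neurons and glia had 1 of 5 tested genes higher. That gene, Sox10, stood at 0 CPM in all controls and entered the test only through dCKO. Some genes that these rules name are not reported here.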

Additional observations from a re-analysis of the deposited data

How the results depend on the processing

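The alternatives were RLE scaling, library totals without TMM, TMM without globin genes, DESeq2 1.42.0, limma-voom (limma 3.58.1), no filter beyond 1 count, leaving out each library in turn, a block for replicate number, and a filter at 1 CPM in 2 libraries with a mean of 5 CPM. A lone dCKO library was taken to vary like the controls. The 8 members called higher kept their direction and call under all of these, with the number called between 8 and 9. Slc4a1 ranged from 4.35 to 4.62 (log2) and Rhag from 4.35 to 4.81 with single libraries left out. Over all genes the calls numbered 816, and 442 to 1637 with single libraries left out, of which 77.9% were higher in the main test, 52.9% with library totals only and 58.0% without control replicate 3. Relatives called higher numbered 2, and 1 to 5 with single libraries left out. Epb4.1 passed without control replicate 3 and under the block, and its log2 fold change ran from 0.27 to 0.35 with single libraries left out and was 0.23 with library totals only (edgeR adjusted p up to 0.389 and 0.177).

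The replicate numbers showed no sign of pairing the samples: deviations of same-numbered libraries correlated at 0.08 and −0.01. The deviations of the 2 dCKO libraries from their mean mirror each other, so these values are not separate checks. They cannot exclude pairing. With the replicate block, 2121 genes, 5 relatives and 9 members were called, Epb4.1 at 0.32 (edgeR adjusted p = 0.0433), and Slc4a1 exceeded the erythroid markers by 0.40 (edgeR adjusted p = 0.0414), which made 1 member above them. Scaled to the markers without globins, Slc4a1 exceeded them by 0.36 (edgeR adjusted p = 0.0482), again 1 member. All p-values against the markers or globins carry the shared error described above. Sptb fell short of the embryonic globins alone by a log2 difference of −0.51 (SE 0.32, edgeR adjusted p = 0.115), and of the markers by −0.76 to −0.35 with single libraries left out. Ank1 ranged from −0.16 to 0.26 there, reversed without dCKO replicate 2 (−0.16). Replicate 3 exists only among the controls, so under the block the group comparison rests on the other libraries. The block is thus close to the fit without control replicate 3. The log2 fold change of Sptb was 3.359 under the block and 3.357 without control replicate 3, and 9 members were called in each. These settings, under which Epb4.1 passed, are not separate checks. The cause of the other shifts was not tested. Depth limits mainly Rhag and Rhd, whose controls held 8 to 24 counts.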
